A study of Mus musculus with 8 samples.

Results

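The genes described here encode enzymes of adenine nucleotide and purine turnover and 1 adenosine receptor, *Ampd3*, *Ampd2*, *Ada*, *Adk*, *Pnp*, *Xdh*, *Nt5e*, *Entpd1*, *Hprt* and *Adora2a*. They were found by matching the RefSeq accessions of the count files to these 10 symbols. Of the 10, 9 had a target among the 23930 in the files, and all 9 passed the low-count filter that left 14601 targets for testing. *Pnp*, the phosphorylase that splits inosine and guanosine, was not analysed here. The list was put together with the iron citrate against citrate buffer results of these same libraries known, so its genes were in effect chosen by the fold changes and CPM values given below, and these are a description and no independent evidence.

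The cells were liver sinusoidal endothelial cells (LSECs), which line the capillaries of the liver. They came from wild-type female Balb/c mice given iron citrate (150 µg, into a vein) in 4 libraries or 0.05 M citrate buffer in the other 4 and examined 5 h later, with 1 mouse named per library. Cells were sorted as CD45-dim, STAB2-high and CD146-high, and RNA was read with a transcriptome-wide amplicon kit that samples each gene through a short amplicon. The submitters describe 5 mice per arm, and samples beyond these 8 were not analysed here.

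AMP deaminases turn AMP into IMP, and with adenylosuccinate synthetase and lyase they form the purine nucleotide cycle. Outside the cell, CD39 and CD73 in turn strip phosphates from ATP, ADP and AMP until adenosine is left, which acts on its receptors or is taken up. Inside, adenosine is either phosphorylated back to AMP or deaminated to inosine, whose base is oxidised to uric acid or is salvaged.

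Counts on targets were between 7969520 and 11314659 per library. Citrate buffer replicate 1 stood apart. It correlated with the other libraries of its group at a median of 0.839, where the other 7 libraries reached 0.962 to 0.981 in theirs. Gene families that are silent in liver, such as odorant receptors, drew 2.42% of its counts, against 0.98% in citrate buffer replicate 2 and 0.29% to 0.61% in the other 6. This library had the lowest citrate buffer value in 7 of the 9 measured genes, and in 41.8% of all tested targets, so changes are also given without it.

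*Ampd3*, which encodes the AMP deaminase known from red blood cells, rose 4.31-fold after iron citrate and was the only called gene of the 9. It had 108, 123, 121 and 136 CPM (read counts scaled to library size, here corrected by trimmed mean of M-values, TMM) in iron citrate replicates 1 to 4, against 21.5, 26.05, 31.9 and 33.8 CPM in citrate buffer replicates 1 to 4. The lowest iron citrate library lay far above the highest citrate buffer library, and within each group the values were close together. The group means were 122 ± 11.4 CPM after iron citrate and 28.3 ± 5.6 CPM after citrate buffer (SD, n = 4 each). The log2 fold change was 2.11 ± 0.17 (SE; edgeR adjusted p = 0.000245), and 2.00 ± 0.14 (SE; edgeR adjusted p = 4.62e-07) without citrate buffer replicate 1. Since these are bulk samples, more cells that express the gene and more of its RNA per cell cannot be told apart.

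A gene was called at an edgeR adjusted p under 0.05 over all 14601 targets. At that threshold 1 of the 9 genes was called higher, where 0.527% of all tested targets were, and 0 were called lower, where 0.0274% were. At an unadjusted p under 0.05, 3 were higher and 1 was lower in the same edgeR fit, where 6.57% and 8.0% of all tested targets were. DESeq2 called 2 higher and 0 lower, where 2.02% and 0.479% of targets were called, and limma-voom called 2 higher and 1 lower, where 1.68% and 0.295% were. Among the 77 targets called higher by edgeR, *Ampd3* ranked 24 by log2 fold change.

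**Figure D1:**
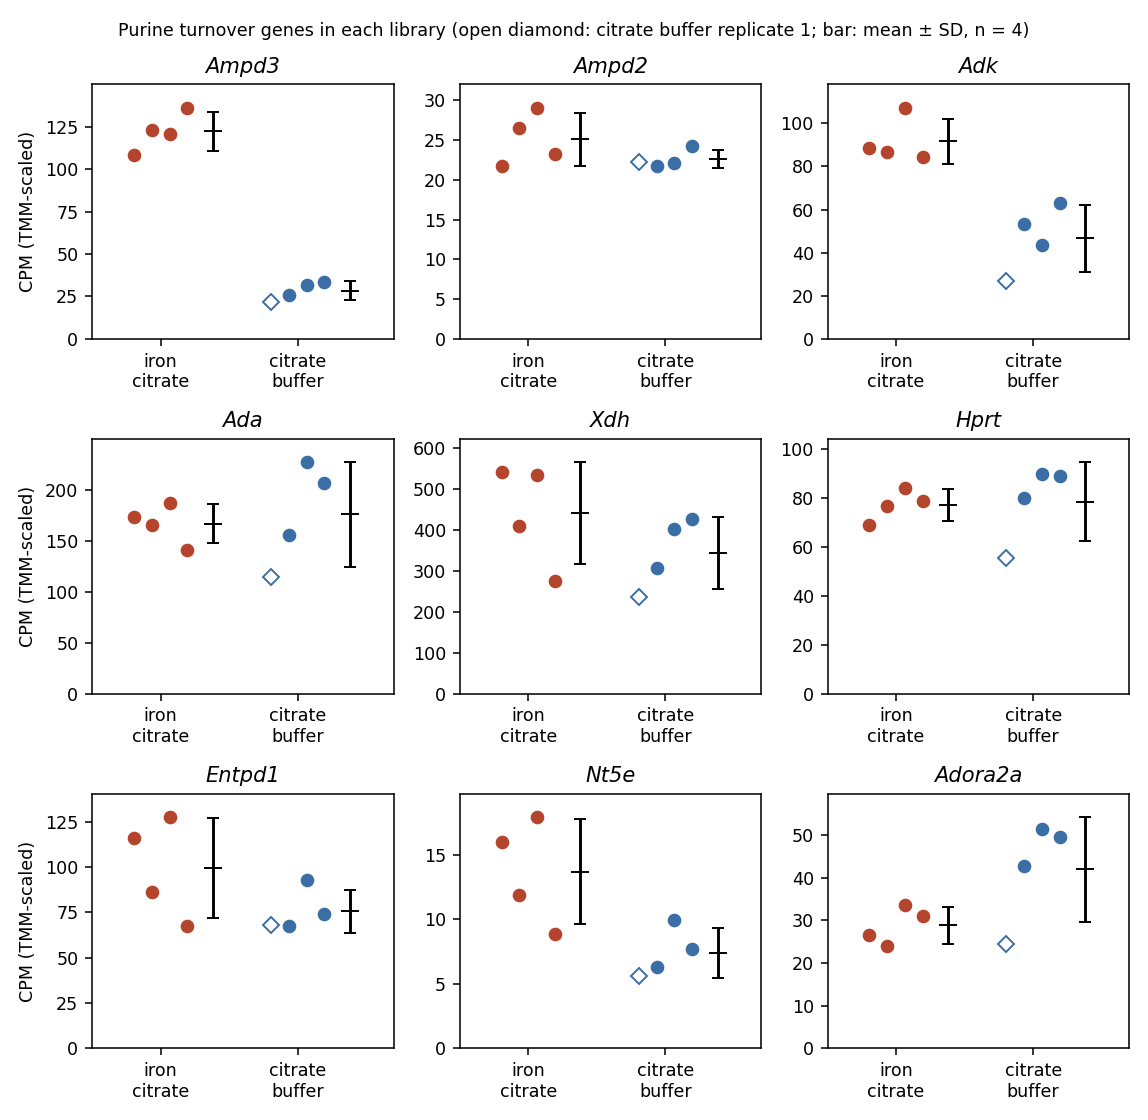
CPM of the 9 measured genes in each library (vertical axes from 0, 1 panel per gene), iron citrate left and citrate buffer right, with citrate buffer replicate 1 as an open diamond and the mean ± SD (n = 4) beside the points. The groups do not overlap in *Ampd3* and *Adk*, and in *Adora2a* only citrate buffer replicate 1 lies within the iron citrate range.

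The paralogue *Ampd2*, the deaminase of most non-muscle tissues, did not show this difference. It had 21.7, 26.5, 29.1 and 23.2 CPM in iron citrate replicates 1 to 4, against 22.3, 21.8, 22.1 and 24.3 CPM in citrate buffer replicates 1 to 4. The 2 groups overlapped, and the log2 fold change was 0.15 ± 0.15 (SE; edgeR adjusted p = 0.601). *Ampd1*, the muscle deaminase, stood at 2.60 ± 0.94 CPM after iron citrate and 4.16 ± 2.54 CPM after citrate buffer (SD, n = 4 each; edgeR adjusted p = 0.444). Within a library, the reads on *Ampd3* came to 4.99, 4.65, 4.15 and 5.86 times those on *Ampd2* in iron citrate replicates 1 to 4, against 0.966, 1.19, 1.44 and 1.39 times in citrate buffer replicates 1 to 4. This ratio does not depend on how libraries are scaled, and since amplicons differ in efficiency it is no ratio of transcripts. The transcripts of the 2 genes share 0 stretches of 25 bases in the GENCODE M21 annotation. An exon of *Rnf141*, a ring finger gene on the opposite strand, overlaps an *Ampd3* exon there, and whether the counting used strand is not given in the sources used here. The *Rnf141* target itself had 40.6 ± 5.39 CPM after iron citrate and 25.8 ± 6.43 CPM after citrate buffer (SD, n = 4 each; edgeR adjusted p = 0.306). *Gm47282*, a microRNA gene on the same strand, also overlaps *Ampd3* and has no target here. A second opposite-strand transcript overlapping *Ampd3*, *B430319F04Rik*, had 4.70 ± 1.40 CPM after iron citrate and 11.1 ± 7.41 CPM after citrate buffer (adjusted p = 0.333).

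**Figure D2:**
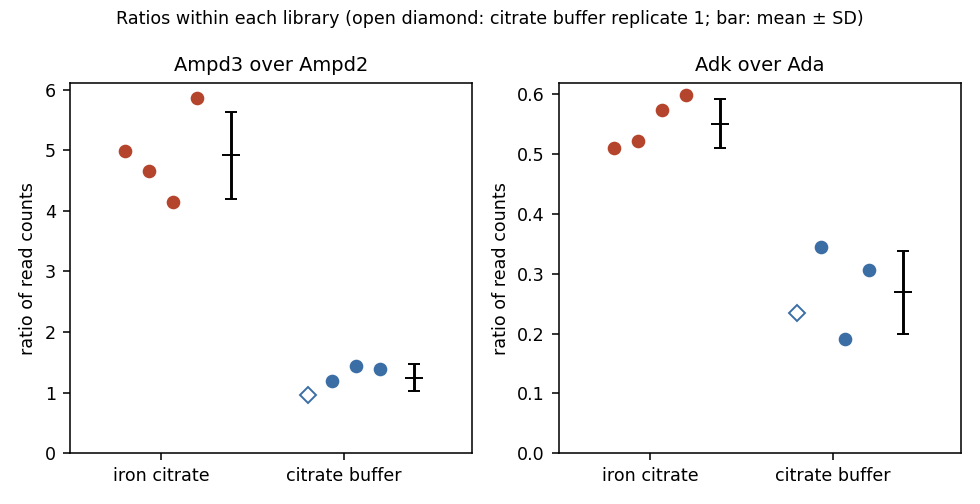
Ratio of read counts within each library (vertical axes from 0), *Ampd3* over *Ampd2* on the left and *Adk* over *Ada* on the right, with iron citrate left of citrate buffer, citrate buffer replicate 1 as an open diamond and the mean ± SD (n = 4) beside the points. Both ratios are higher in every iron citrate library than in any citrate buffer library.

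Genes whose log2 CPM followed *Ampd3* most closely over the 8 libraries were sought among the 11678 tested targets with a mean of at least 5 CPM. The 5 closest were *2210408F21Rik* (Pearson r = 0.9974), the glutathione reductase *Gsr* (0.9973), the iron exporter *Slc40a1* (0.9959), the glutathione synthesis subunit *Gclm* (0.9951) and the biliverdin reductase *Blvrb* (0.9941). These 8 points hold both groups, so any gene with a like difference between groups scores high, and r is given as a description. *Gsr* had 163 ± 14.2 CPM after iron citrate and 36.1 ± 7.75 CPM after citrate buffer (SD, n = 4 each), 4.53-fold, a size close to that of *Ampd3*. *Blvrb* was 6.59-fold higher and *Gclm* 13.2-fold. The haem oxygenase *Hmox1*, a textbook NRF2 target, stood at 3236 ± 323 CPM after iron citrate and 88.6 ± 25.1 CPM after citrate buffer (SD, n = 4 each). Among the other measured genes described here, r with *Ampd3* was 0.89 for *Adk*, 0.79 for *Nt5e* and -0.47 for *Adora2a*. It was 0.54 for *Ampd2*, 0.52 for *Entpd1*, 0.47 for *Xdh*, 0.15 for *Hprt* and 0.08 for *Ada*.

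The promoter sequences of *Ampd3* and *Adk* are shown because these were the 2 genes with iron citrate above citrate buffer in every library. The same held for 6.36% of all tested targets, and *Adk* was not called by edgeR with all 8 libraries. The RefSeq table used (GRCm38.p6) holds 13 promoters for 8 of the 10 genes, 3 of them for *Ampd3* and 2 for *Adk*. On both strands of each window, from 250 bases before to 50 after a start, 3 motifs were sought, TGACNNNGC (the core of the antioxidant response element that NRF2 binds), TGACTCA (an AP-1 site) and CCGGAA (a core bound by ETS factors). Capitals mark the matches. The first stretch is the 250 bases before the first *Ampd3* start, the second is the 30 bases from the second *Ampd3* start on, and the third is the 250 bases before the second *Adk* start, all on the plus strand.
*Ampd3*, chr7:110768372-110768621: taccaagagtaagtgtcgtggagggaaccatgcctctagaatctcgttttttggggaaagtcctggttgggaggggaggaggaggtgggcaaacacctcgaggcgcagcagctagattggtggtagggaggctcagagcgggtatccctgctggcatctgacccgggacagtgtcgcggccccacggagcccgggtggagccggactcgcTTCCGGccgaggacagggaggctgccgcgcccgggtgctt
*Ampd3*, chr7:110772604-110772633: ggcacgaggaggTGACTCAggtccaagaca
*Adk*, chr14:21075902-21076151: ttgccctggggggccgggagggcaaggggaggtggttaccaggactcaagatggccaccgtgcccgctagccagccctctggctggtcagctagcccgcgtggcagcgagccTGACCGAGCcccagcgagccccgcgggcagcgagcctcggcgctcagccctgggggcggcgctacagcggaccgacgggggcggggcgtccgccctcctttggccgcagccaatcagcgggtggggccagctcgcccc

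TGACNNNGC was found in 1 of the 13 promoters, that of the second *Adk* start, and in 12.4% of all 32817 promoters. That *Adk* start is also where GENCODE M21 begins the transcript paired with the measured accession. None of the 3 *Ampd3* starts matches in that way. The transcript paired with the measured *Ampd3* accession begins at chr7:110768206, ahead of every *Ampd3* window searched. The bases before that start were not searched, so the *Ampd3* windows are not its upstream promoter. TGACTCA was found once, at base 13 from the second *Ampd3* start, and in 5.2% of all promoters. CCGGAA was found before the first *Ampd3* start, as its reverse complement, and in the promoters of *Ada*, *Pnp* and *Hprt*, and in 14.9% of all promoters. A match is a string of letters and shows no binding, and the absence of TGACNNNGC from the 3 *Ampd3* windows says only that these letters are not there.

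Adenosine inside the cell is a substrate of adenosine kinase, encoded by *Adk*, and of adenosine deaminase, encoded by *Ada*. *Adk* had 88.6, 86.5, 107 and 84.4 CPM in iron citrate replicates 1 to 4, against 26.7, 53.5, 43.5 and 63.2 CPM in citrate buffer replicates 1 to 4. The groups did not overlap, as in 6.36% of all tested targets in this direction, and citrate buffer replicate 1 was lowest. The means were 91.7 ± 10.5 CPM after iron citrate and 46.7 ± 15.6 CPM after citrate buffer (SD, n = 4 each), 1.96-fold, and the log2 fold change was 0.98 ± 0.24 (SE; edgeR adjusted p = 0.163). It was not called by edgeR with all 8 libraries and was called by edgeR without citrate buffer replicate 1 (log2 fold change 0.78, SE 0.15, adjusted p = 0.0108, where 1.5% of targets were called higher), with DESeq2 (adjusted p = 0.0122) and with limma-voom (adjusted p = 0.00656). Without citrate buffer replicates 1 and 2 the adjusted p was 0.0115, where 1.35% of targets were called higher. Without replicate 1 alone, 8.73% of all tested targets had iron citrate above citrate buffer in every library. The summed neutrophil markers moved with that choice too, at 104 to 173 CPM after iron citrate and 74.6 to 82.6 CPM in citrate buffer replicates 2 to 4, and their part in the *Adk* values was not tested. Over all alternatives its adjusted p ran from 0.00656 to 0.513.

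*Ada* had 174, 166, 187 and 141 CPM in iron citrate replicates 1 to 4, against 114, 155, 227 and 207 CPM in citrate buffer replicates 1 to 4. The iron citrate values fell inside the wider citrate buffer range. The log2 fold change was -0.07 ± 0.21 (SE; edgeR adjusted p = 0.867), and its sign turned without citrate buffer replicate 3 (0.067) or 4 (0.015). Reads on *Adk* came to 0.51, 0.522, 0.573 and 0.598 times those on *Ada* in iron citrate replicates 1 to 4, against 0.234, 0.344, 0.191 and 0.305 times in citrate buffer replicates 1 to 4. The 2 groups of ratios did not overlap, at 0.551 ± 0.041 after iron citrate and 0.269 ± 0.069 after citrate buffer (SD, n = 4 each). This pair was chosen after its values were seen, and no test was made on the ratio.

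Downstream of inosine, *Xdh* encodes xanthine dehydrogenase, the enzyme that makes uric acid, and *Hprt* the transferase that salvages hypoxanthine and guanine. *Xdh* had 541, 410, 533 and 276 CPM in iron citrate replicates 1 to 4, against 235, 307, 402 and 426 CPM in citrate buffer replicates 1 to 4. Iron citrate replicate 4 fell below 3 of the citrate buffer libraries, so the groups overlapped, and the log2 fold change was 0.36 ± 0.25 (SE; edgeR adjusted p = 0.437). *Hprt*, often used as a reference transcript, had 68.7, 76.7, 84.2 and 78.6 CPM in iron citrate replicates 1 to 4, against 55.3, 79.9, 89.8 and 88.9 CPM in citrate buffer replicates 1 to 4. Apart from citrate buffer replicate 1 the values lay close together, with a log2 fold change of -0.03 ± 0.17 (SE; edgeR adjusted p = 0.945).

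**Figure D3:**
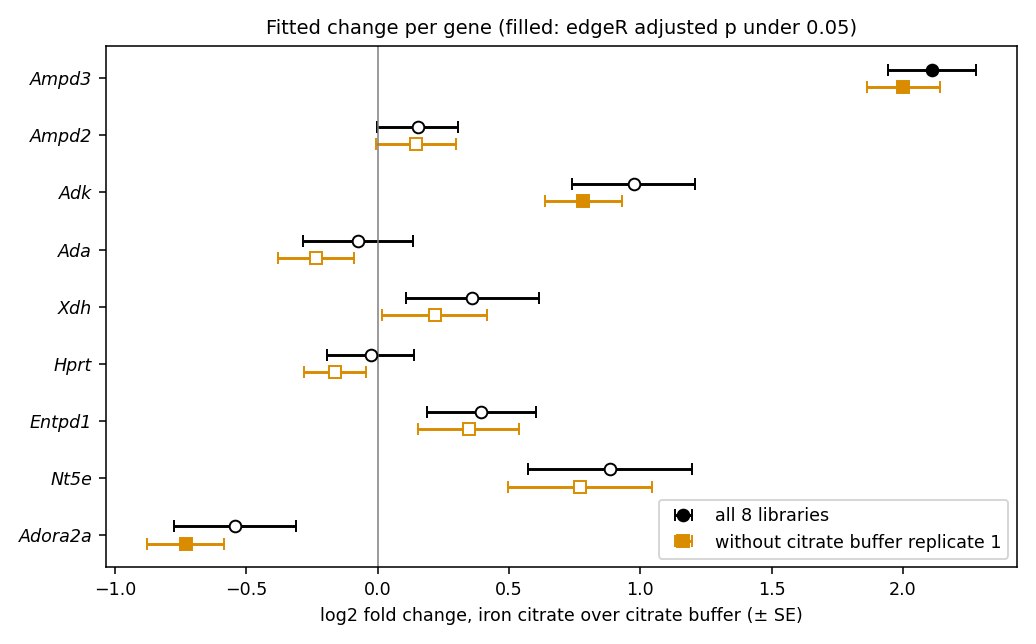
Log2 fold change of iron citrate over citrate buffer for the 9 measured genes (horizontal axis, ± SE), from all 8 libraries (circles) and without citrate buffer replicate 1 (squares), filled where the edgeR adjusted p was under 0.05. *Ampd3* is filled in both fits, and *Adk* at 0.78 and *Adora2a* at -0.73 are filled only in the fit without that library.

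At the cell surface, *Entpd1* encodes CD39, which degrades ATP and ADP to AMP, and *Nt5e* encodes CD73, which turns AMP into adenosine. *Entpd1* had 116, 86.2, 128 and 67.4 CPM in iron citrate replicates 1 to 4, against 68.1, 67.4, 92.7 and 74.1 CPM in citrate buffer replicates 1 to 4. *Nt5e* was read less, with 16.03, 11.9, 18.0 and 8.91 CPM in iron citrate replicates 1 to 4, against 5.62, 6.35, 9.97 and 7.69 CPM in citrate buffer replicates 1 to 4. In both genes iron citrate replicates 1 and 3 were higher than every citrate buffer library and replicate 4 lay within the citrate buffer range. Iron citrate replicate 2 was above every citrate buffer library in *Nt5e* but not in *Entpd1*. Neither gene passed the test, with log2 fold changes of 0.40 (SE 0.21, edgeR adjusted p = 0.339) for *Entpd1* and 0.89 (SE 0.31, adjusted p = 0.333) for *Nt5e*, and neither was called in any alternative fit. Iron citrate replicates 1 and 3 were also the 2 highest libraries of all for *Xdh*. The summed level of 8 Kupffer cell markers in iron citrate replicates 1 to 4 was 264, 382, 507 and 197 CPM, lowest in replicate 4 but higher in replicate 2 than in replicate 1, and its part in these values was not tested.

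*Adora2a* encodes an adenosine receptor that raises cyclic AMP when adenosine binds. It had 26.5, 24.1, 33.6 and 31.0 CPM in iron citrate replicates 1 to 4, against 24.4, 42.8, 51.3 and 49.4 CPM in citrate buffer replicates 1 to 4. Citrate buffer replicate 1 was as low as the iron citrate libraries, while the other 3 citrate buffer libraries were all above them. With all 8 libraries the log2 fold change was -0.54 ± 0.23 (SE; edgeR adjusted p = 0.333), and the gene was not called. Without citrate buffer replicate 1 it was called lower, at a log2 fold change of -0.73 ± 0.15 (SE; edgeR adjusted p = 0.0172), where 0.258% of targets were called lower, and the groups did not overlap, as in 4.21% of targets in this direction. Neutrophil markers, summed, also separated the groups without that library, with iron citrate higher, and their part here was not tested. It was also called lower by limma-voom with sample weights (log2 fold change -0.78, adjusted p = 0.013) and by edgeR with citrate buffer replicates 1 and 2 left out (adjusted p = 0.0069, where 0.546% of targets were called lower), and over all alternatives its adjusted p ran from 0.0069 to 0.595. Of the other adenosine receptors, *Adora1*, the A1 receptor, stood at 0.958 ± 0.305 CPM after iron citrate and 2.97 ± 3.19 CPM after citrate buffer (SD, n = 4 each; edgeR adjusted p = 0.333). Citrate buffer replicate 1 was highest, at 7.62 CPM. The log2 fold change of *Adora1* was -1.64 with all 8 libraries and -0.63 without that library (edgeR adjusted p = 0.611). *Adora2b* did not pass the low-count filter, and no library held more than 0.398 CPM of it.

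A wider list of 85 other genes of purine metabolism was set beside these, of which 79 had a target and 57 were tested. By edgeR 0 of the 57 were called higher and 0 lower, against 0.527% and 0.0274% of all targets, and at an unadjusted p under 0.05, 3 were higher and 3 lower, no larger a share than the 6.57% and 8.0% of all tested targets. DESeq2 and limma-voom called 0 of them in either direction. Their median log2 fold change was 0.07, close to the -0.01 of all tested targets. That of the 9 genes above was 0.36, the value of *Xdh*. It is only a description, since those genes were chosen with these results known. Iron citrate was above citrate buffer in every library for 5 of the 57 and below in every library for 2, against 6.36% and 2.29% of all tested targets.

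**Figure D4:**
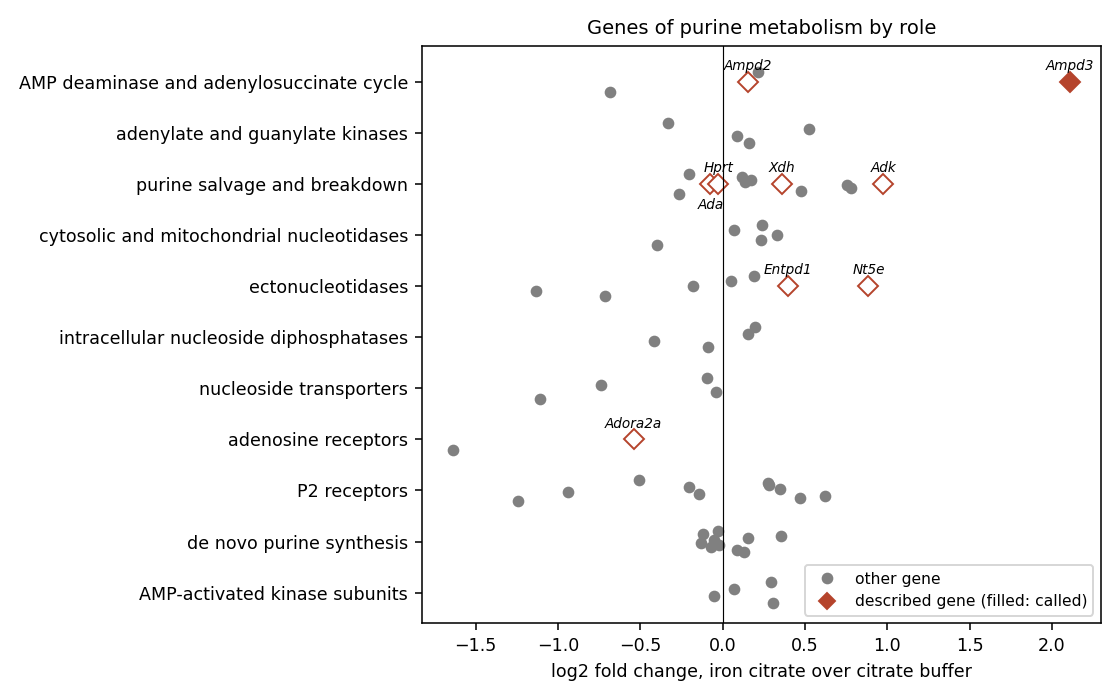
Log2 fold change of iron citrate over citrate buffer (horizontal axis) for tested genes of purine metabolism, 1 row per role, with the 9 genes described here as diamonds (filled where called) and the other genes as grey points. *Ampd3* at 2.11 lies to the right of every other gene plotted.

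In the purine nucleotide cycle, adenylosuccinate synthetase *Adss* had 160 ± 7.89 CPM after iron citrate and 138 ± 13.2 CPM after citrate buffer, and the lyase *Adsl* had 41.05 ± 7.16 and 36.9 ± 7.72 CPM in the same order (SD, n = 4 each; edgeR adjusted p = 0.347 and 0.672). The mitochondrial nucleotide kinase *Ak3*, which phosphorylates AMP with GTP, had 49.99 ± 3.37 CPM after iron citrate and 47.0 ± 5.87 CPM after citrate buffer (SD, n = 4 each; edgeR adjusted p = 0.739). Of 10 tested genes of de novo purine synthesis, which builds IMP from ribose phosphate, all lay between -0.13 and 0.36 on the log2 scale. Their most read members were *Paics*, with 164 ± 7.49 CPM after iron citrate and 170 ± 15.4 CPM after citrate buffer, and the ribose-phosphate pyrophosphokinase *Prps2*, with 73.1 ± 11.96 CPM after iron citrate and 68.96 ± 18.3 CPM after citrate buffer (SD, n = 4 each).

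In salvage and breakdown, 0 of 8 other tested genes were called. The most read were *Mtap*, the methylthioadenosine phosphorylase, with 94.2 ± 4.9 CPM after iron citrate and 85.9 ± 11.9 CPM after citrate buffer, and the nucleotide phosphohydrolase *Samhd1*, with 67.1 ± 3.76 CPM after iron citrate and 77.2 ± 14.5 CPM after citrate buffer (SD, n = 4 each). *Gda*, which deaminates guanine, was singled out after its values were seen, since it was called higher without citrate buffer replicate 1 (log2 fold change 1.26, SE 0.26, edgeR adjusted p = 0.023). In that fit 1.5% of all tested targets were called higher. Without that library the groups did not overlap in *Gda*, as in 8.73% of all tested targets in this direction. It had 22.3, 14.5, 12.7 and 11.8 CPM in iron citrate replicates 1 to 4, against 24.9, 5.76, 7.39 and 5.96 CPM in citrate buffer replicates 1 to 4, and with all 8 libraries its adjusted p was 0.61. The neutrophil sum separated the groups in the same direction without that library, and its part here was not tested.

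Among nucleotidases inside the cell, *Nt5c3b* had 106 ± 10.1 CPM after iron citrate and 100.4 ± 8.26 CPM after citrate buffer, and *Nt5c3* had 58.9 ± 5.5 CPM after iron citrate and 46.9 ± 7.18 CPM after citrate buffer (SD, n = 4 each; edgeR adjusted p = 0.778 and 0.333). At the cell surface, the peptidase *Dpp4*, which binds adenosine deaminase in humans, had 1936 ± 227 CPM after iron citrate and 1699 ± 241 CPM after citrate buffer (SD, n = 4 each; edgeR adjusted p = 0.528), and the NAD-degrading *Cd38* had 534 ± 99.9 CPM after iron citrate and 516 ± 60.1 CPM after citrate buffer (adjusted p = 0.894). The equilibrative nucleoside transporter *Slc29a1*, which carries adenosine across the plasma membrane, had 248 ± 24.7 CPM after iron citrate and 255 ± 80.3 CPM after citrate buffer, and the lysosomal *Slc29a3* had 52.3 ± 2.97 CPM after iron citrate and 55.98 ± 13.9 CPM after citrate buffer (SD, n = 4 each; edgeR adjusted p = 0.94 and 0.803). The diphosphatases *Entpd5* and *Entpd7* of the inner membranes had log2 fold changes of -0.09 and 0.15 and were not called.

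Receptors for extracellular ATP included the channels *P2rx7* and *P2rx4*. *P2rx7* had 129.5, 117, 140.5 and 137 CPM in iron citrate replicates 1 to 4, against 54.4, 79.2, 102 and 105 CPM in citrate buffer replicates 1 to 4. The groups did not overlap, as in 6.36% of all tested targets in this direction and as in *Adss* and *Nt5c3* above. *P2rx7* was not called (log2 fold change 0.62, SE 0.20, edgeR adjusted p = 0.333). *P2rx4* had 140 ± 15.3 CPM after iron citrate and 101.3 ± 42.0 CPM after citrate buffer (SD, n = 4 each; adjusted p = 0.371). Of the AMP-activated kinase, which senses AMP, the catalytic *Prkaa1* had 102 ± 6.89 CPM after iron citrate and 82.5 ± 13.2 CPM after citrate buffer and the regulatory *Prkab1* had 86.6 ± 6.84 CPM after iron citrate and 89.8 ± 26.5 CPM after citrate buffer (SD, n = 4 each; edgeR adjusted p = 0.333 and 0.913).

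Several of these genes are also expressed by blood cells, so markers of the cell types the sort could hold were summed. The 12 sinusoidal endothelial markers came to 25240 to 27580 CPM after iron citrate and 16050 to 31290 CPM after citrate buffer, the lowest in citrate buffer replicate 1, and *Clec4g*, a lectin of these cells, had 10020 ± 966 CPM after iron citrate and 9476 ± 1996 CPM after citrate buffer (SD, n = 4 each). Erythroid markers, of which 6 of 10 had a target, came to 11.6 to 15.1 CPM after iron citrate and 11.7 to 30.5 CPM after citrate buffer, and 3 of them stayed under 1 CPM in every library. The globins were not analysed here, and the part of red cells in the *Ampd3* values was not tested. *Alas2*, the erythroid haem synthesis enzyme, had 4.75 ± 2.67 CPM after iron citrate and 1.48 ± 0.762 CPM after citrate buffer, and the red cell membrane protein *Slc4a1* had 7.84 ± 1.53 CPM after iron citrate and 15.7 ± 7.97 CPM after citrate buffer (SD, n = 4 each).

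The 8 Kupffer cell markers came to 197 to 507 CPM after iron citrate and 117 to 309 CPM after citrate buffer, and 8 markers of T and NK cells to 752 to 900.1 CPM and 645 to 1278 CPM in the same order. Markers of hepatocytes (7 of 8 with a target) came to 307 to 615 CPM after iron citrate and 365 to 745 CPM after citrate buffer, and those of B and plasma cells (5 of 6) to 89.3 to 162 CPM after iron citrate and 46.95 to 147 CPM after citrate buffer. Those of neutrophils (6 of 6) came to 104 to 173 CPM after iron citrate and 74.6 to 301 CPM after citrate buffer, the highest in citrate buffer replicate 1, of platelets (5 of 5) to 22.9 to 28.8 CPM and 21.6 to 49.8 CPM, and of stellate cells (6 of 6) to 353 to 555 CPM and 212 to 587 CPM. The groups overlapped in all 9 sums with all 8 libraries, where 0 tested markers were called by edgeR, and none of the markers with a target was at 0 in every library. Without citrate buffer replicate 1 the neutrophil sums no longer overlapped, and *S100a8* and *S100a9*, the calprotectin subunits, were higher in every iron citrate library than in the other 3 citrate buffer libraries. The part of other cells in the values of the purine genes was not tested.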

How the data were processed

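The authors deposited whole-number read counts per RefSeq target, 1 file per library, made with HTSeq 0.6.0 per the submitters' processing notes, which also name DESeq2 1.18.1. Libraries were Ion AmpliSeq mouse transcriptome libraries, per the labels' protocols. No aligner, genome build, strand setting or read filter is named in them, and these are not given in the sources read. HTSeq summary lines (2.15% to 4.6% of reads) were left out. Accessions were matched to symbols with the RefSeq table, 18128 by version, 4324 without it and 110 through GENCODE, and 1368 kept their accession.

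Iron citrate was compared with citrate buffer over the whole table with edgeR 4.0.16 in R 4.3.3 (filterByExpr, TMM factors, robust quasi-likelihood F-test, Benjamini-Hochberg adjustment over 14601 targets, call under 0.05). Standard errors were derived from the F statistic. The p-values reflect only how these 8 samples scatter, since the labels say nothing more of how independent the mice were. The edgeR step was tested on simulated data, in which no library was made to stand apart as citrate buffer replicate 1 did. Alternatives were other scaling factors, DESeq2 1.42.0, limma-voom (limma 3.58.1), other filters, the replicate number as a block and libraries left out. Pairs of libraries within a group differed by more than sampling noise (chi-square per degree of freedom of at least 8.34). The genes and lists were chosen with earlier results of these data known. Named were all members, called pathway genes or else the 2 most read non-members per role, the 2 most read markers per cell type (given here mostly as sums), the 5 targets most like a called member, and *Hmox1* and *Nqo1*. *Ampd1*, *Gda* and the genes overlapping *Ampd3* fall outside that rule and were added after their values were seen. A gene that the rule names is not reported here. *Nqo1*, an NRF2 target, had 169 ± 15.7 CPM after iron citrate and 6.25 ± 1.79 CPM after citrate buffer (SD, n = 4 each).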

Additional observations from a re-analysis of the deposited data

Results flagged for a closer look

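In 6 of 62 groups checked (31 genes, 2 groups each), 1 library lay far from the other 3 of its group, where chance flags about 1 group in 20. None of these concerned the 9 measured genes of the main list. In citrate buffer replicate 1, *Adss* was at 118 CPM, against 142 to 146 CPM in the other 3, *Slc29a3* at 35.2 CPM, against 61.5 to 63.9 CPM, *Entpd7* at 13.7 CPM, against 42.0 to 47.6 CPM, and *Mtap* at 104 CPM (103.5), against 78.7 to 82.2 CPM. *Samhd1* was at 72.8 CPM (72.75) in iron citrate replicate 4, against 64.8 to 65.7 CPM. *Nt5c3b* was at 88.1 CPM in citrate buffer replicate 4, against 104 to 106 CPM.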

How the results depend on the processing

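*Ampd3* was called higher in all 17 alternatives, with log2 fold changes of 1.90 to 2.21 (2.00 to 2.21 with single libraries left out) and adjusted p-values up to 0.00399. *Ampd2*, *Xdh*, *Nt5e* and *Entpd1* kept their direction and were called in none of the 17. Targets called higher and lower, 77 and 4 in the reported fit, were 295 and 70 with DESeq2, 246 and 43 with limma-voom, 43 and 0 with the replicate block, 200 and 81 without citrate buffer replicates 1 and 2, and 45 to 221 and 0 to 38 with single libraries left out, the highest of each without citrate buffer replicate 1. Of the 9 genes, 2 were called higher with DESeq2, limma-voom and without citrate buffer replicates 1 and 2, where 2.02%, 1.68% and 1.35% of all tested targets were. With limma-voom and without those 2 libraries 1 was called lower, where 0.295% and 0.546% were. Leaving out single libraries gave 1 to 2 higher and 0 to 1 lower. The highest of each came without citrate buffer replicate 1, where 1.5% of all tested targets were called higher and 0.258% lower. The second gene higher was *Adk* and the lower one *Adora2a* (-0.81 without citrate buffer replicates 1 and 2). Of the other purine genes 1 was called higher without citrate buffer replicates 1 and 2, where 1.35% of all tested targets were. With single libraries left out it was 0 to 1, the 1 without citrate buffer replicate 1, where 1.5% of all tested targets were called higher. In both cases the gene was *Gda*. With single libraries left out the log2 fold change turned sign in *Ada* (-0.24 to 0.067), *Hprt* (-0.16 to 0.042), *Cd38* (-0.07 to 0.13), *Entpd5* (-0.20 to 0.006), *Entpd7* (-0.12 to 0.30), *Paics* (-0.10 to 0.01), *Prkab1* (-0.22 to 0.12), *Prps2* (-0.033 to 0.28) and *Slc29a1* (-0.24 to 0.10), none of them called. It also turned with upper-quartile factors, which moved the median of all targets by -0.11, in *Ak3* (-0.021), *Nt5c3b* (-0.049), *Cd38* (-0.052) and *Prps2* (-0.042). With library totals it turned in *Ak3* (-0.009), *Nt5c3b* (-0.039), *Cd38* (-0.044) and *Prps2* (-0.039), with limma-voom in *Cd38* (-0.025), *Entpd7* (-0.11) and *Paics* (0.01), with the replicate block in *Slc29a1* (0.017), and without citrate buffer replicates 1 and 2 in *Adsl* (-0.084), *Ak3* (-0.049), *Cd38* (-0.033) and *Entpd7* (-0.17). The cause was not tested. *Adora1* gave no value with the mean filter of 5 CPM. Deviations from the group means correlated at -0.0003, 0.18, 0.61 and -0.32 between same-numbered libraries, in order of replicate number. These values differ too much to tell whether the number pairs samples. With the replicate block *Ampd3* had a log2 fold change of 2.13 (edgeR adjusted p = 0.000869). *Nt5e* rested on 58 to 171 reads per library.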
